A study of Arabidopsis thaliana with 12 samples.

Results

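The single mutants pmr6 and pmr5 of Arabidopsis thaliana were set against each other in untreated rosettes, with 3 arrays of pmr6 and 3 of pmr5, that is 6 of the 12 arrays of the series, chosen by the genotype in their labels. The other 6 arrays, 3 of the double mutant pmr5 pmr6 and 3 of the wild-type accession Col-0, served to share the estimate of spread and to place each difference. Rosettes were taken at 3 weeks from plants kept at 22 °C under a photoperiod of 14 h and gave total RNA for Affymetrix ATH1 arrays, on which a probe set is a group of short oligonucleotides meant to measure a transcript. Replicates are labelled as biological, but no label says whether plants were pooled or which alleles were used; a p-value here therefore reflects only how far these arrays scatter.

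Both mutants were isolated because powdery mildew fungi grow poorly on them, and both have leaf cell walls with altered pectin. PMR6 encodes a pectate lyase-like protein with an anchor to the outer face of the plasma membrane, and PMR5 a member of a plant-specific family of wall polysaccharide acetyltransferases. Their resistance is known not to need the salicylic acid or the jasmonate and ethylene signalling pathways. Pectin is the gel-forming, galacturonic acid-rich polysaccharide of the primary wall. Setting the mutants side by side asks where loss of the one wall protein and loss of the other leave different transcript levels.

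It was not proven that the row identifiers of the deposited table stand beside their own values, so no probe set was tied to a gene. Over 179 pairs of rows listed for the same gene, mean levels correlated at r = 0.06 as deposited. When the identifier column was displaced against the values by every possible number of rows, the highest r was 0.56 and the next 0.52, under the 0.6 required for the order to count as proven, and the pairs of the upper and lower parts of the table were highest at different displacements. The transcripts of PMR5 and PMR6, markers of leaf tissue and pathway lists could therefore not be read. Probe sets are called by their row in the table, counted from 1 below its header, and a row number says nothing about function. In whole rosettes, fewer cells of a type and less RNA per cell cannot be told apart.

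The 6 arrays resembled each other closely. Spearman correlations over all rows were 0.966 to 0.971 within pmr6, 0.958 to 0.97 within pmr5 and 0.956 to 0.973 between pmr6 and pmr5 arrays, so the ranges within and between the mutants overlapped. Arrays departed from one another at both ends of the intensity range. At the dim end pmr5 replicate 1 stood apart: the 5th percentile of its intensities was 9.6, against 3.5 and 3.6 on the other pmr5 arrays, while the pmr6 arrays lay at 3.3 to 4. At the bright end the 99th percentile was 10460.6, 10518.4 and 10335.9 on the pmr6 arrays, against 9126.4, 10183.1 and 8921.6 on the pmr5 arrays. Replicates 1 and 3 of pmr5 thus had the lowest bright ends of the 12 arrays. In all 3 hybridization runs pmr6 was processed on fluidics module 3 and pmr5 on module 2, so module and genotype cannot be told apart.

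Few probe sets passed the test between pmr6 and pmr5. Of 17059 tested, 75 were called (limma, Benjamini-Hochberg adjusted p under 0.05), which is 0.44% of those tested. Higher in pmr6 were 45 (0.264%) and lower in pmr6 were 30 (0.176%). In the same fit 579 probe sets (3.39%) differed between pmr6 and Col-0 and 1378 (8.08%) between pmr5 and Col-0. The double mutant differed from pmr6 at 1409 (8.26%) and from pmr5 at 546 (3.2%). Those comparisons and the present one share arrays, and a smaller count does not show that the mutants act alike. The middle 90% of all log2 differences, pmr6 minus pmr5, ran from -0.42 to 0.34, with a median SE of 0.15.

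Most called differences were small. Those higher in pmr6 had a median of 1.47-fold, from 1.27 to 2.82, and 4 of them reached 2-fold. Those lower in pmr6 had a median of 1.63-fold, from 1.26 to 7.63, and 6 of them reached 2-fold. Another 37 probe sets differed by 2-fold or more without being called, 33 of them in the dimmest 25% of those tested, where the median SE was 0.34. Folds are on the log2(intensity + 28) scale and understate changes of dim probe sets.

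In all 75 the 3 pmr6 arrays lay entirely on one side of the 3 pmr5 arrays, as they did in 17.1% of all probe sets tested (6.72% with pmr6 above and 10.4% with pmr6 below). At an unadjusted p under 0.05 the count was 1851 (10.9%). Each of the 3 hybridization runs held 1 array of each genotype, and since the groups do not overlap the direction within a run was fixed. The median size of the difference on the log2 scale was 0.66 in run 1, 0.49 in run 2 and 0.65 in run 3. With the run as a block 113 probe sets were called, 54 higher and 59 lower in pmr6.

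**Figure D1:**
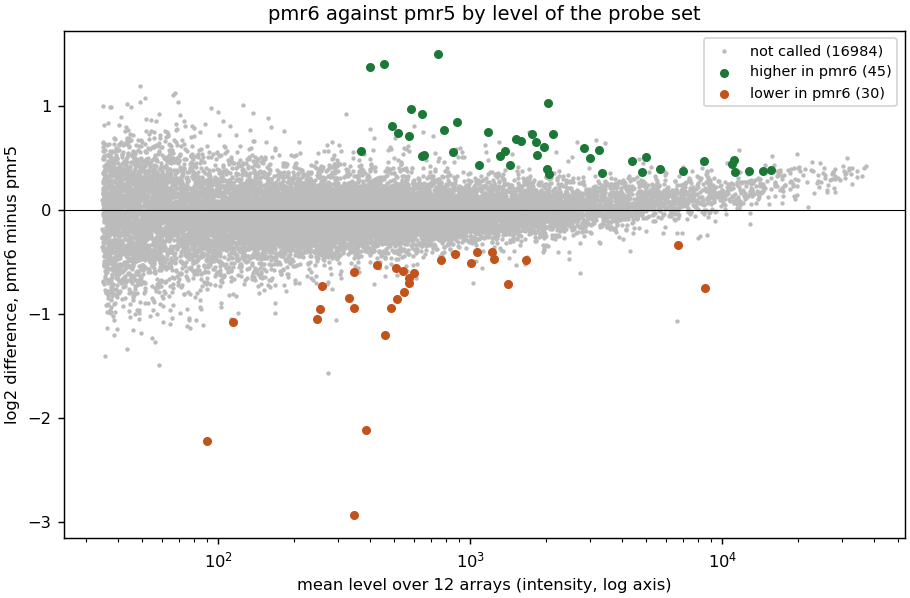
Log2 difference, pmr6 minus pmr5, against the mean level over 12 arrays (log axis) for the 17059 probe sets tested; grey points were not called, green points were higher and orange points lower in pmr6 (45 and 30). The grey cloud widens at the dim end and bends upward at the bright end, where 98.7% of probe sets at a mean level of at least 10000 lie above 0.

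Without pmr5 replicate 1 the count was 15 (0.0879%), 11 higher (0.0645%) and 4 lower (0.0234%) in pmr6, and all 15 were among the 75. Those 15 are described first. All 15 also passed after quantile normalization of the arrays, 13 passed with a robust variance trend and 5 with no variance trend (rows 19654, 15295, 10504, 15010 and 6786), and 0 passed the unmoderated 2-sample test, which called no probe set at all (1688 had an unadjusted p under 0.05). The 3 with the largest differences were high in pmr5 and low in pmr6.

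The largest difference was at row 10504. Its intensities were 209.1, 114.7 and 157.6 in pmr6, against 1199.7, 1491.2 and 1468.7 in pmr5. They were 444.4, 313.8 and 324.6 in pmr5 pmr6 and 217.6, 156.3 and 139.2 in Col-0. The pmr6 arrays overlapped those of Col-0, pmr5 stood far above every other array, and the double mutant stood above pmr6 and Col-0 but well below pmr5. The probe set was 7.63-fold lower in pmr6 than in pmr5 (-2.93 ± 0.18 SE on the log2 scale, limma adjusted p = 1.1e-08). The double mutant fell short of pmr5 as well (limma adjusted p = 3.8e-06).

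Rows 15010 and 13438 were high in pmr5 too, but there the double mutant was as high as pmr5 or higher. Row 15010 had 122.8, 193.2 and 197.9 in pmr6, against 861, 840 and 761.1 in pmr5, with 1096.9, 897.9 and 907.3 in pmr5 pmr6 and 138.4, 145.8 and 166.6 in Col-0. It was 4.32-fold lower in pmr6 than in pmr5 (log2 -2.11, SE 0.15, limma adjusted p = 4.3e-08). The arrays thus fell into a low pair of genotypes, pmr6 and Col-0, and a high pair that both carry the pmr5 mutation, with no overlap between them.

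Row 13438 was the dimmest of the 15. It had 6.6, 32.2 and 20.9 in pmr6, against 219.5, 158.3 and 195 in pmr5, with 369.4, 263.4 and 225.9 in pmr5 pmr6 and 41.6, 10.7 and 62 in Col-0. The difference was 4.66-fold on the log2(intensity + 28) scale (log2 -2.22, SE 0.31, limma adjusted p = 0.0019). Since 2 of the pmr6 values lie below the pseudocount, the fold depends on it: with pseudocounts of 4 and 100 the log2 difference was -3.19 and -1.28.

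Row 6786 followed the same arrangement at a smaller size. It had 169.5, 141.1 and 184.1 in pmr6, against 455.2, 345.8 and 316 in pmr5, and was 2.06-fold lower in pmr6 (-1.04 ± 0.16 SE on the log2 scale, limma adjusted p = 0.0024). The double mutant averaged 341.5 ± 28.1 and Col-0 175.0 ± 5.5 (SD, n = 3 each).

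The mirror image, a level lowered where pmr5 was mutated, was clearest at row 19654. It had 586.4, 697.6 and 568.4 in pmr6, against 233.9, 222.9 and 206 in pmr5. It had 239.9, 239.2 and 265.5 in pmr5 pmr6 and 677.8, 768.6 and 782.8 in Col-0. The highest array with the pmr5 mutation, at 265.5, lay far below the lowest without it, at 568.4. The probe set was 2.59-fold higher in pmr6 than in pmr5 (log2 1.37, SE 0.12, limma adjusted p = 1.5e-06). Neither pmr6 against Col-0 (limma adjusted p = 0.32) nor pmr5 pmr6 against pmr5 (limma adjusted p = 0.62) passed the test.

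Row 22483 had the same arrangement at a high level and a small fold. It had 6147.1, 5938.4 and 6212.3 in pmr6, against 4053.4, 4600.1 and 4204.4 in pmr5, a 1.42-fold difference (log2 0.51, SE 0.07, limma adjusted p = 0.002). The double mutant averaged 4089.3 ± 265.9, close to pmr5, and Col-0 5795.4 ± 105.6, close to pmr6 (SD, n = 3 each). After quantile normalization its log2 difference was 0.41 (limma adjusted p = 0.0044).

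Another 4 of the 15 rose above Col-0 in pmr6 and rose further in the double mutant, while pmr5 averaged between Col-0 and pmr6. Row 2300 had 1016, 1069.3 and 1903.7 in pmr6, against 324, 518.5 and 483.6 in pmr5, with 2802.5, 2174.8 and 2146.8 in pmr5 pmr6 and 303, 139.4 and 266.5 in Col-0. It was 2.82-fold higher in pmr6 than in pmr5 (log2 1.5, SE 0.23, limma adjusted p = 0.0029). No pmr6 array overlapped pmr5 or the double mutant. Replicate 3 of pmr6 was well above the other 2, and without it the log2 difference was 1.21 (limma adjusted p = 0.028). The call was lost with a robust variance trend (limma adjusted p = 0.0977), with no variance trend (limma adjusted p = 0.213) and without both arrays that stand apart at the dim end, pmr5 replicate 1 and pmr5 pmr6 replicate 3 (limma adjusted p = 0.0619).

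Row 15088 was the second of these. It had 2624.5, 2708.7 and 3661 in pmr6, against 1154.7, 1924.5 and 1350.7 in pmr5, with 6319.5, 5540.8 and 4812.8 in pmr5 pmr6 and 762.3, 659 and 726.3 in Col-0. The 4 genotypes did not overlap, in the order Col-0, pmr5, pmr6 and pmr5 pmr6 from low to high. The difference between the single mutants was 2.03-fold (log2 1.02, SE 0.15, limma adjusted p = 0.002).

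Rows 7430 and 1043 completed this set. Row 7430 averaged 2734 ± 150.8 in pmr6, 1637.2 ± 109.1 in pmr5, 3809.3 ± 152.5 in pmr5 pmr6 and 1243.3 ± 244.5 in Col-0 (SD, n = 3 each), and was 1.66-fold higher in pmr6 than in pmr5. Row 1043 averaged 2169.8 ± 124.7 in pmr6, 1309.6 ± 202.9 in pmr5, 2877.1 ± 381.2 in pmr5 pmr6 and 1189.6 ± 82.3 in Col-0 (SD, n = 3 each), and was 1.65-fold higher in pmr6 than in pmr5. For row 1043 pmr5 did not pass the test against Col-0 (limma adjusted p = 0.58), while pmr6 did (limma adjusted p = 5.4e-05).

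At rows 15295 and 7964 pmr5 averaged below Col-0 and pmr6 above it. Row 15295 had 718.2, 732.4 and 795.6 in pmr6, against 342, 419.6 and 348.7 in pmr5, a 1.96-fold difference (log2 0.97, SE 0.12, limma adjusted p = 0.00041). Its double mutant averaged 910.7 ± 132.3 and Col-0 452.6 ± 54.3 (SD, n = 3 each), and pmr5 against Col-0 did not pass (limma adjusted p = 0.198). The pmr6 arrays lay above all pmr5 and Col-0 arrays. Row 7964 averaged 1907.8 ± 184.7 in pmr6, 1197.2 ± 105 in pmr5 (SD, n = 3 each), with 1959.5, 1937.5 and 1912.3 in pmr5 pmr6 and 1352.8, 1300 and 1697.4 in Col-0. At row 7964 the difference between the single mutants was 1.58-fold and pmr5 against Col-0 likewise did not pass (limma adjusted p = 0.115).

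Rows 2653 and 14399 fell below Col-0 in both single mutants, and averaged lower in pmr5 and lowest in the double mutant. Row 2653 had 1692.3, 2065.2 and 1901.7 in pmr6, against 1062.1, 1332.8 and 1099.5 in pmr5, with 848.3, 917.3 and 993.4 in pmr5 pmr6 and 2499.7, 2637.2 and 2799 in Col-0. The 4 genotypes did not overlap, and pmr6 was 1.61-fold higher than pmr5 (log2 0.68, SE 0.10, limma adjusted p = 0.002). Row 14399 averaged 2404.3 ± 126.3 in pmr6, 1534.1 ± 251.4 in pmr5, 957 ± 67.9 in pmr5 pmr6 and 3209 ± 267.9 in Col-0 (SD, n = 3 each), 1.57-fold higher in pmr6 than in pmr5.

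The last of the 15, row 1545, was highest in pmr6. It had 998.4, 983.3 and 893.9 in pmr6, against 507.7, 527.5 and 146.3 in pmr5, with 526.9, 566.9 and 469.4 in pmr5 pmr6 and 235.7, 312.1 and 193.8 in Col-0. Replicate 3 of pmr5 lay below all Col-0 arrays and the other 2 pmr5 arrays above them. The log2 difference was 1.4 (SE 0.28, limma adjusted p = 0.026), and without pmr5 replicate 3 it was 0.85 (limma adjusted p = 0.016). The call was lost without pmr6 replicate 1, 2 or 3 (limma adjusted p = 0.0823, 0.124 and 0.112). It was also lost with a robust variance trend (limma adjusted p = 0.196) and with no variance trend (limma adjusted p = 0.341). The same held with only the 6 pmr6 and pmr5 arrays (limma adjusted p = 0.0775) and with no dim filter (limma adjusted p = 0.0655).

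**Figure D2:**
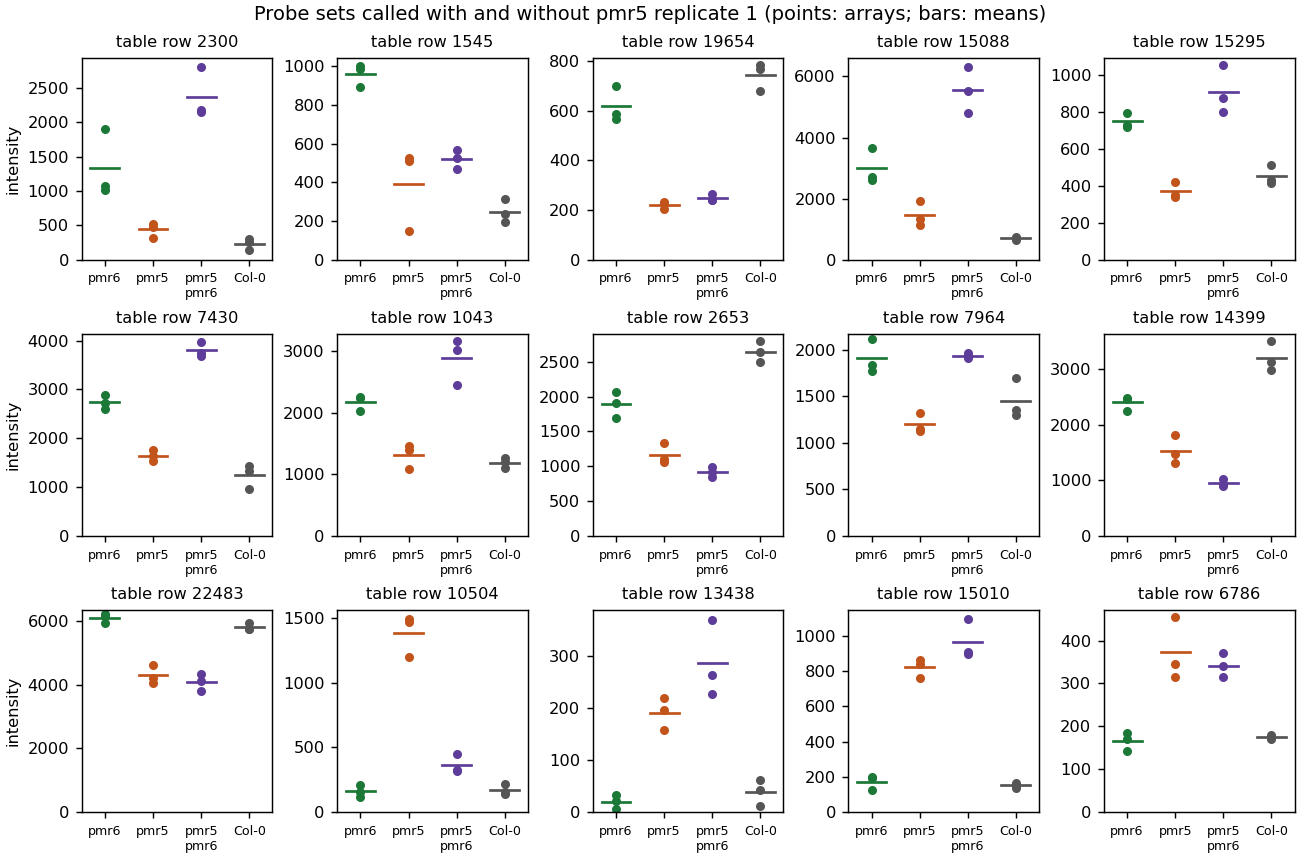
Intensity (linear axis from 0) of the 15 probe sets called with and without pmr5 replicate 1, in pmr6, pmr5, pmr5 pmr6 and Col-0; points are arrays and bars the means of 3. Rows 10504, 13438, 15010 and 6786 are lower in pmr6 than in pmr5, the other 11 higher, and at row 1545 a single pmr5 array lies far below the other 2.

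Across all 75, the arrays of Col-0 and pmr5 pmr6, which did not enter the difference itself, sorted the called probe sets into a few arrangements. The following counts are a description with no test. In 40 (53.3%) both single mutants averaged between Col-0 and the double mutant, against 34% of all probe sets tested. Of these, 14 ran upward in the order Col-0, pmr5, pmr6, pmr5 pmr6, which 6.33% of all tested did. Another 13 ran upward in the order Col-0, pmr6, pmr5, pmr5 pmr6 (11.4% of all tested). A further 13 ran downward in the order Col-0, pmr6, pmr5, pmr5 pmr6 (9.6% of all tested, not matched for level). These downward 13 all had mean levels of at least 788.8. At those levels 55.4% of all tested were higher in pmr6, against 43.2% at any level. After quantile normalization rows 2653, 14399, 10914, 7986 and 3830 of the downward 13 were still called. Rows 20291, 2313, 9480, 4031, 13343, 12398, 10469 and 8783 were not (limma adjusted p from 0.0501 to 0.304). The downward order with pmr6 below pmr5 held for 0 of the 75, against 6.62% of all tested.

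Among the 30 probe sets lower in pmr6, Col-0 averaged below both single mutants in 16, between them in 13 and above both in 1. Of all probe sets that averaged lower in pmr6, it was below both in 41.7% and above both in 28.9%. The double mutant averaged above both in 18 and below both in 0, against 41.9% and 29.8% of all probe sets that averaged lower in pmr6. At the level of single arrays, Col-0 overlapped pmr6 and not pmr5 in 12, pmr5 and not pmr6 in 3, and neither in 15. Over all probe sets whose 3 pmr6 arrays lay below the 3 pmr5 arrays, 32.4% had Col-0 overlapping pmr6 and not pmr5 and 16.1% the reverse. These overlap counts were near the background, whereas Col-0 above both (1) and the double mutant below both (0) were rarer than in the background.

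Besides the 4 already given, the 11 with the largest differences among the 30 had log2 differences of -1.2 to -0.71. Row 3861 averaged 302.6 ± 89.1 in pmr6 and 727.9 ± 184.9 in pmr5, row 12567 averaged 390.6 ± 92.4 in pmr6 and 766.8 ± 109.8 in pmr5, and row 17385 averaged 434.8 ± 71 in pmr6 and 769.6 ± 107.3 in pmr5 (SD, n = 3 each). All 3 had Col-0 below pmr6 and pmr5 pmr6 above pmr5. Row 4860 was the brightest of the 30, with 6898 ± 684.6 in pmr6 and 11675.8 ± 1508.5 in pmr5 (SD, n = 3 each), a difference of -0.75 ± 0.15 SE on the log2 scale (limma adjusted p = 0.029), and it ran opposite to most bright probe sets. Row 10314 was the exception among the 11: Col-0, at 157.3 ± 38.5, lay close to pmr5, and pmr6 was lowest, at 61.2 ± 21.5, against 156.6 ± 13.4 in pmr5 (SD, n = 3 each), a difference of -1.08 ± 0.24 SE (limma adjusted p = 0.049). None of the 11 was called without pmr5 replicate 1, and row 10314, row 6801 and row 7013 were not called after quantile normalization.

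Among the 45 probe sets higher in pmr6, Col-0 averaged below both single mutants in 17, above both in 15 and between them in 13. Of all probe sets that averaged higher in pmr6, it was below both in 33.2% and above both in 42.6%. The double mutant averaged above both in 18, below both in 18 and between them in 9, against 33.2% above both and 43.6% below both over all probe sets that averaged higher in pmr6. These average places were near the background. At the level of single arrays, Col-0 overlapped pmr5 and not pmr6 in 14, pmr6 and not pmr5 in 9, and neither in 22. Over all probe sets whose 3 pmr6 arrays lay above the 3 pmr5 arrays, 16.3% had Col-0 overlapping pmr5 and not pmr6 and 30.3% the reverse. The 45 thus leaned the other way from the background, which was not tested. Row 16624 was the one probe set of the 45 with Col-0 between but nearer pmr5 and the double mutant below both: it averaged 746.6 ± 45 in pmr6 and 415.3 ± 53.7 in pmr5 (SD, n = 3 each), a difference of 0.81 ± 0.13 SE on the log2 scale (limma adjusted p = 0.0057), and was not called without pmr5 replicate 1 (adjusted p = 0.076). Others in this group with large differences were row 7685, with 904.9 ± 113.4 in pmr6 and 464.5 ± 75.7 in pmr5, and row 13556, with 1180.6 ± 127.1 in pmr6 and 663.9 ± 210.5 in pmr5 (SD, n = 3 each). Both ran upward from Col-0 to pmr5 pmr6, and neither was called without pmr5 replicate 1.

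**Figure D3:**
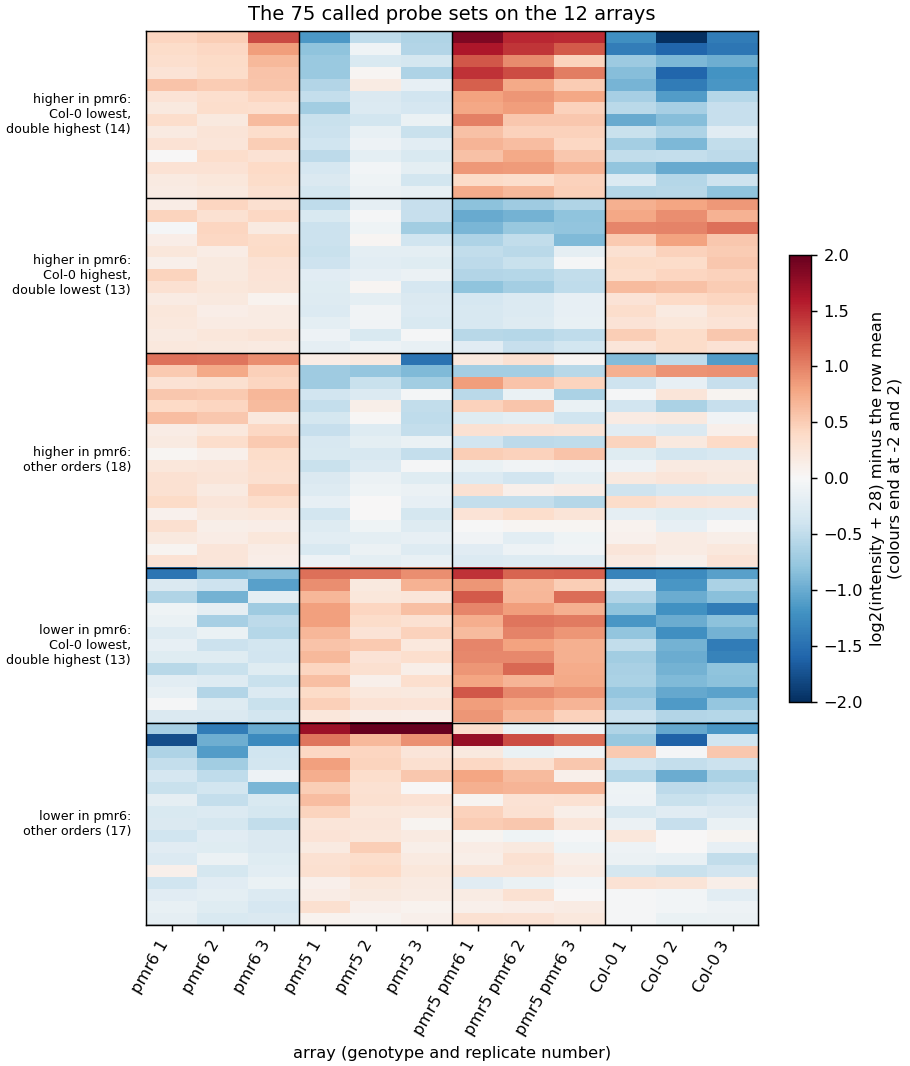
The 75 called probe sets (rows, grouped by direction and by the order of the 4 genotype means) on the 12 arrays; colour is log2(intensity + 28) minus the row mean, ending at -2 and 2. By definition the single mutants average between Col-0 and the double mutant in the 3 blocks of 14, 13 and 13 probe sets.

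The called probe sets were unevenly spread over intensity. The brightest 25% of the probe sets tested, with mean levels of 788.8 and above, held 43 of the 75, of which 34 were higher in pmr6 and 9 lower. The next 25% held 11 higher and 16 lower. The dimmer 2 classes held 0 higher, with 2 lower in the dimmest and 3 in the one above it. The bright calls had the smaller differences, with a median of 1.4-fold in the brightest class against 1.73-fold in the next.

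A general upward bend of the bright probe sets moved with the bright calls. Among the 613 tested probe sets with a mean level over the 12 arrays, taken on the log scale, of at least 5000, 90.5% were higher in pmr6, with a median log2 difference of 0.155. Among the 223 at 10000 or above, 98.7% were higher, with a median of 0.237. That median was 0.279, 0.0895 and 0.325 in runs 1, 2 and 3, so it was large where pmr5 replicates 1 and 3 entered and small where pmr5 replicate 2 did. Quantile normalization, which gives every array the same distribution, brought it to 0.00236. What made the bright ends differ was not tested.

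After that normalization 52 probe sets were called, 30 higher and 22 lower in pmr6, and 48 of them were among the 75. All 75 kept their direction. At a mean level of 5000 or above, 9 probe sets were called higher in pmr6 as deposited and 0 of these after quantile normalization, while the 2 called lower, row 4860 and row 1871, were called after it too. The brightest of the 9, row 10224, averaged 17963.6 in pmr6 and 13717.1 in pmr5, and its log2 difference was 0.39 as deposited and 0.11 after quantile normalization. The loss was less complete at lower cuts. At a mean level of 3000 or above, 3 of the 14 called higher in pmr6 were called after it too, and at 1000 or above 16 of 31. Of those called lower, 2 of 2 were kept at 3000 or above and 6 of 8 at 1000 or above. Rows 1871 and 10224 are named after their values were seen.

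The count of 75 depended on single arrays. Leaving out pmr6 replicate 2 gave 29 and leaving out pmr6 replicate 3 gave 19. Among the pmr5 arrays, leaving out replicate 1 gave 15 and replicate 3 gave 42, and leaving out pmr5 pmr6 replicate 2 gave 46. Leaving out pmr5 replicate 2 gave 192, of which 156 were higher in pmr6 and 129 had not been among the 75.

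The 75 were chosen with pmr5 replicate 1 included, so the size of their differences without it is no independent support. Without that array their median size was 0.55 on the log2 scale, against 0.59 with all arrays, while their median SE was 0.12 against 0.11. The 60 lost calls then had adjusted p-values from 0.076 to 0.36, with a median of 0.19. In 52 of the 75, pmr5 replicate 1 was the pmr5 array farthest from the pmr6 mean, a larger share than the 42.8% over all probe sets tested. In the dimmest class its median absolute distance from the mean of the other 2 pmr5 arrays was 0.41 on the log2 scale, against 0.31 and 0.3 for replicates 2 and 3, but in the brightest class it was 0.09, against 0.1 and 0.11.

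**Figure D4:**
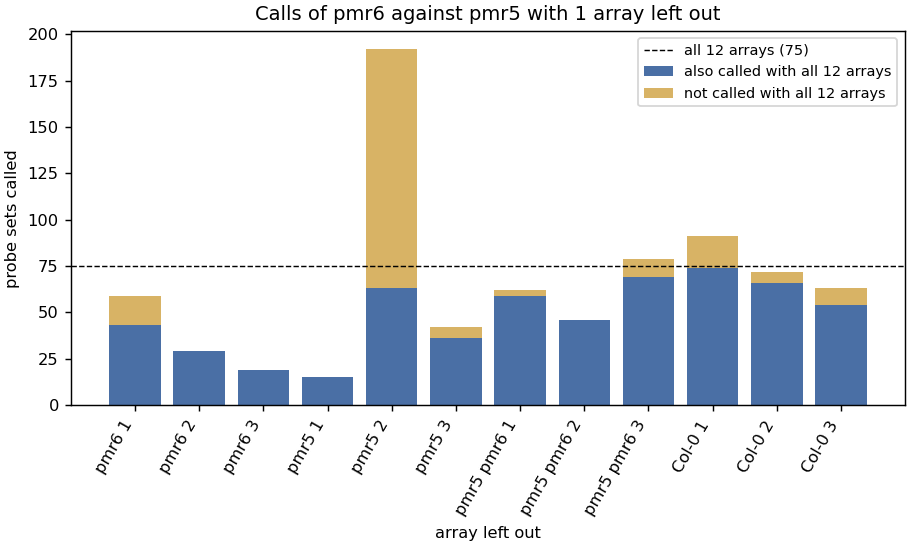
Number of probe sets called between pmr6 and pmr5 with each of the 12 arrays left out in turn; blue parts were among the 75 called with all arrays (dashed line) and yellow parts were not. The count runs from 15 without pmr5 replicate 1 to 192 without pmr5 replicate 2.

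**Figure D5:**
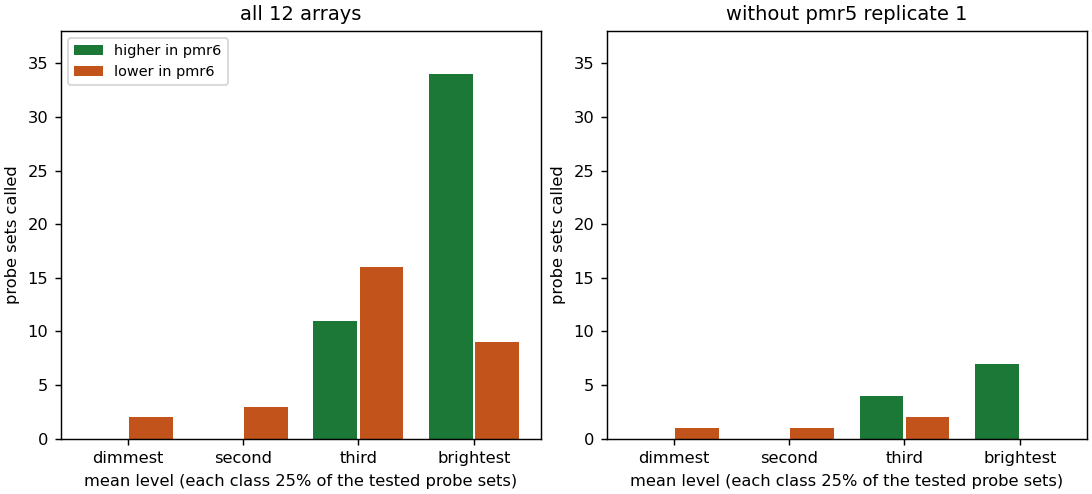
Probe sets called higher (green) and lower (orange) in pmr6, in 4 level classes of 25% of the tested probe sets each, with all 12 arrays (left) and without pmr5 replicate 1 (right). With all arrays the brightest class, in which 55.4% of all probe sets were higher in pmr6, holds 34 higher and 9 lower calls; without that array it holds 7 higher and 0 lower.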

How the data were processed

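Each probe set has 1 deposited intensity, on a linear scale, for every array. Per the labels, biotin-labelled cRNA was made from 15 µg of total RNA by the Affymetrix protocol. The software that summarised the probes is not stated. The deposited intensities have the same mean, about 500, on each array once the top and bottom 2% are left out. Per the file headers, instrument records give the fluidics module. They do not name a hybridization run. Runs were grouped from the recorded times, with a gap of at most 30 minutes within a run. Other values of the records were not used.

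Intensities were analysed as log2(intensity + 28), with 28 near the 20.2th percentile. The 64 rows with AFFX identifiers and then the dimmest 25% were left out, leaving 17059 of 22810. Because the identifier order is not proven, the values dropped need not be those of control probe sets. Excluding table rows 1 to 64 rather than these gave 77 calls, 47 higher and 30 lower in pmr6. Limma 3.58.1 in R 4.3.3 fitted 4 genotype means to 12 arrays, with moderated variances following a trend in level and Benjamini-Hochberg adjustment over all 17059. The number of arrays limits the precision. Probe sets were named that were called with groups not overlapping and were also called without pmr5 replicate 1, or were among the 15 largest differences per direction. The fit was run on simulated data, drawn as independent normal values. These held no bend at the bright end, no array that stands apart and no run effect, so they do not test those. Alternatives covered the arrays used, filter, pseudocount, normalization, variance model and run block. The comparison, its rules and its lists were chosen with earlier results of these data known. Gene lists and cell type markers were not used, since rows carry no proven gene.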

Additional observations from a re-analysis of the deposited data

How the results depend on the processing

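With all 12 arrays 75 probe sets were called, 45 higher and 30 lower in pmr6. Leaving out 1 array at a time gave 15 to 192, with 11 to 156 higher and 4 to 40 lower. With the hybridization run (the replicate number) as a replicate block 113 were called, 54 higher and 59 lower. The main fit did not take the numbers as pairs. Same-numbered pmr6 and pmr5 arrays did not deviate together (r = -0.012, 0.024 and 0.062). Such an r, 1 per run over many probe sets, does not show that single probe sets were free of a run effect. The count was 42 (26 higher, 16 lower) with no dim filter, 6 (2 higher, 4 lower) with no variance trend and, by construction, 10 (4 higher, 6 lower) at a fold of at least 2. An unmoderated 2-sample test of 3 against 3 arrays called 0 (0 higher, 0 lower), with 1688 at an unadjusted p under 0.05. Without both arrays that stand apart at the dim end, pmr5 replicate 1 and pmr5 pmr6 replicate 3, it was 16 (12 higher, 4 lower). Chosen after seeing the data, leaving out pmr5 replicate 1 gave 26 (14 higher, 12 lower) with the block and 13 (10 higher, 3 lower) with the dimmest 50% out. It was 52 (30 higher, 22 lower) with only the 6 pmr6 and pmr5 arrays and after quantile normalization. Apart from array number, signal limits the dim probe sets, where the median SE was 0.34 in the dimmest 25% and 0.09 in the brightest. The cause of these changes was not tested.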

Other observations

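Neighbouring rows of the table resembled each other in level (r = 0.229 over all rows 1 apart, and 0.021 for rows 100 apart; rows are not independent). In 1 bright stretch, rows 22408 to 22468, chosen after its values were seen, the median intensity was 2825.9, against 180.3 over all rows. Of its 60 tested probe sets, 58 were higher in pmr6, with a median log2 difference of 0.224. Over all tested, 43.2% were higher, with a median of -0.0312, and over those at a mean level of 3000 or above 80% were higher, with a median of 0.112. After quantile normalization 53 were higher, with a median of 0.151, and as deposited 1 was called, against 0.44% of all tested.

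The first 9 rows of the table varied together across the 12 arrays, with a mean pairwise correlation of 0.938. Whether they measure plant transcripts or controls added to the sample was not tested, so they are not read as a group of genes. All 9 were among the probe sets tested, and of the 35 tested in rows 1 to 64, 0 were called. Their mean log2 intensity was 10.557, 10.779 and 9.843 on the pmr6 arrays, against 9.918, 10.655 and 8.921 on the pmr5 arrays. The genotypes overlapped, but within each hybridization run pmr6 was higher, by 0.639, 0.124 and 0.922 in runs 1, 2 and 3. Over the 9 rows the log2 difference, pmr6 minus pmr5, was 0.374 to 0.672. It was not particular to them: over rows 25 to 33 the log2 difference was 0.48 to 0.69.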
